A study of Mus musculus with 6 samples.

Results

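Basement membrane genes were followed in perichondrium, the fibrous sheath around cartilage and bone, of mice with and without fibrillin-1. The 32 genes encode the chains of type IV collagen, collagens XV and XVIII, the laminin chains, the nidogens, the heparan sulfate proteoglycans and smaller proteins that sit in or bind to basement membranes. They were taken by symbol from the 55536 genes of the count matrix, and all 32 were found. A filter on low counts left 15712 genes for testing, 28 of these 32 among them. Col4a6, Lama1, Lamb3 and Lamc3 did not pass it.

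The tissue was limb bone perichondrium at postnatal day 4, measured by RNA sequencing in 6 libraries. The knockout group holds 3 libraries of genotype Fbn1Scx-/-, in which Fbn1 was removed by Cre expressed from Scx, the gene of scleraxis, a transcription factor of tendon, ligament and related connective tissue progenitors. The wild-type group also holds 3 libraries, and the labels do not say whether those mice carried the Cre transgene or floxed alleles. Cells in which Scx was never active keep Fbn1 in such a model. Titles, shortened here, name the knockout libraries (mut-596, mut-597, mut-795) and the wild-type libraries (WT-596, WT-597, WT-795), and values are always given in that order. Full titles hold a further number, different in each, and the tag ScxCRE for mut-596 but Koscx for mut-597 and mut-795. No label ties a library to its own animal, so p-values here measure the spread between libraries, which may be technical.

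Basement membranes are thin sheets of extracellular matrix beneath epithelia and around vessels, muscle fibres, fat cells and Schwann cells. Laminin trimers of an alpha, a beta and a gamma chain polymerise on the cell surface through integrins and dystroglycan, type IV collagen trimers form a second, covalently linked network, and nidogens and perlecan join the networks. Perichondrium is mainly fibrous connective tissue, whose basement membranes belong largely to the vessels, nerves and muscle that adjoin it.

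Total counts ran from 7209217 to 10316017 per library. Fbn1 was at 10.04, 6.75 and 7.10 CPM (counts scaled to library size, with TMM factors) in the knockout libraries and at 119, 84.7 and 63.5 CPM in wild type, a log2 fold change of -3.48 (SE 0.29, edgeR adjusted p = 0.000103). The groups did not overlap. Xist had 6221 counts in mut-596, 4024 in mut-597 and no more than 4 elsewhere, so sex is uneven between the groups. WT-795 sat with the knockout libraries in its relation to GC content. The Spearman correlation across genes between transcript GC content and a library's deviation from the mean was -0.34 there, between -0.45 and -0.18 in the knockout libraries, and 0.50 and 0.55 in WT-596 and WT-597. Markers of connective tissue summed to between 28122 and 29929 CPM in knockout and between 29615 and 31124 CPM in wild type, and all 9 passed the filter. In bulk tissue, fewer cells of a type and less RNA per cell cannot be told apart.

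The genes of type IV collagen lie in head-to-head pairs, each pair transcribed outward from a shared stretch. The stretches of 2 such pairs are shown because both genes of each pair were detected and can be compared. The stretches before Hspg2 (perlecan) and Nid1 (nidogen-1) are shown because these genes lay on opposite sides of 0, and they were chosen after their values were seen. Positions are in GRCm38.p6, and each run reads 5′ to 3′ on the strand given. Capitals mark GC boxes, the letters GGGCGG on either strand. The first run is chr8:11312805-11312826, plus strand, the 22 bases by which the first exons of Col4a1 and Col4a2 overlap. The next, chr1:82586850-82586920, minus strand, holds the 71 bases between the first exons of Col4a4 and Col4a3. The remaining runs are chr4:137468553-137468768, plus strand, the 216 bases before Hspg2, and chr13:13437352-13437550, plus strand, the 199 bases before Nid1.
Col4a1 and Col4a2: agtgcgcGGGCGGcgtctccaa
Col4a4 and Col4a3: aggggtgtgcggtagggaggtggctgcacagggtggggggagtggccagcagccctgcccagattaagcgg
Hspg2: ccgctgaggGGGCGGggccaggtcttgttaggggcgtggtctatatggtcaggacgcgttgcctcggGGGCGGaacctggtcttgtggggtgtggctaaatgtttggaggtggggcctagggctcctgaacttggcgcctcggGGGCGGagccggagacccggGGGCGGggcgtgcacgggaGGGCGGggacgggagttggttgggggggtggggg
Nid1: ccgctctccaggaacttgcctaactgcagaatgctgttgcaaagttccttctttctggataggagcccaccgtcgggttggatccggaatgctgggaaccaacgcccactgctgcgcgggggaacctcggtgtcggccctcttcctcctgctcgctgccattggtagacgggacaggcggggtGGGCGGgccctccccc
The Hspg2 stretch holds 5 GC boxes, the Nid1 stretch and the Col4a1 and Col4a2 overlap hold 1 each, and the Col4a4 and Col4a3 stretch holds none. In the RefSeq promoter table of this build, 22 of the 32 genes matched, with 30 windows among them. A GC box was found on either strand in 15 of these 30 windows and in 32.7% of 32851 windows of the same 250 bases upstream. The letters CCAAT, searched on both strands, were in 11 of the 30 (36.7%) and in 33.8% of all windows. A CCAAT match on the opposite strand can share bases with a GC box. A match describes the letters and is no evidence of binding.

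None of the 28 genes tested passed the edgeR threshold, an adjusted p under 0.05 over all genes. The background was low as well, at 0.00636% of all genes tested, a single gene, Fbn1. Adjusted p-values of the 28 lay between 0.459 and 0.964. At an unadjusted p under 0.05 there were 5 (17.9%), against 10.5% of all genes. Those lower in knockout were Col4a2, Col18a1, Hspg2 and Tinagl1, against a background of 7.12% of all genes lower, and the 1 that was higher was Frem1, against 3.37%. Log2 fold changes were above 0 for 13 genes and below 0 for 15 (53.6%, against 49.1% of all genes), with a median of -0.06, against 0.01 for all genes. DESeq2 gave 17 of the 28 an adjusted p and called none, against 0.153% of the 6555 genes to which it gave one. Limma-voom also called none, with 0.00636% of all genes called.

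Groups did not overlap for 4 of the 28. Lama2, Nid1 and Frem1 were higher in all knockout libraries (background 5.66% of all genes), and Col4a5 was lower in all of them (background 6.22%). For each of these the exact two-sided permutation test gave p = 0.1, the smallest that 3 against 3 libraries allow. WT-795 lay inside the knockout range for 20 of the 28 genes, against 17 for WT-596 and 8 for WT-597. Among the 15 genes below 0 it did so for 12. Without WT-795 edgeR called 2 of the 29 genes then tested, Col4a2 and Tinagl1, both lower. In that fit 9.08% of all genes were called, a larger share than 2 of 29, against 0.00636% with the library.

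**Figure D1:**
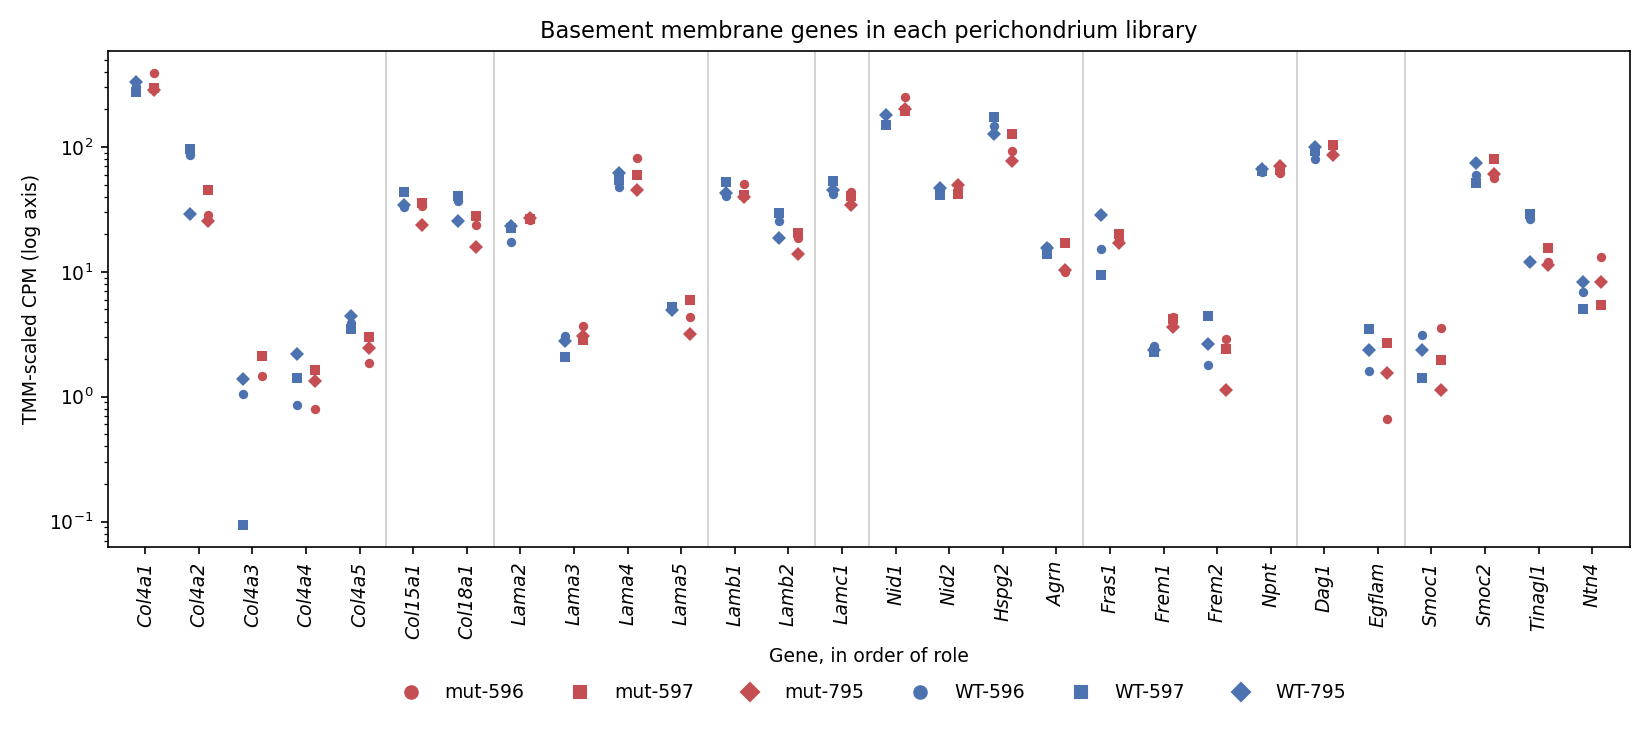
TMM-scaled CPM (log axis) of the 28 genes past the filter in each of the 6 libraries, by role; each point is 1 library. Col4a1 and Nid1 stand at the top of the range, and the points of WT-795 for Col4a2 and Tinagl1 lie among those of the knockout libraries.

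Per length, Col4a1 was the most abundant of these transcripts, at a wild-type mean of 40.6 CPM per kb of exon. Nid1 (23.2), Dag1 (14.3), Npnt (12.9), Col4a2 (10.7), Hspg2 (10.4), Smoc2 (8.87) and Nid2 (8.63 CPM per kb) followed. In knockout the order began with Col4a1 (43.3), Nid1 (31.2), Dag1 (15.3) and Npnt (13.1 CPM per kb). These levels rest on the summed exons of each gene, and a tissue that uses short isoforms would be understated.

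Type IV collagen trimers of the common vascular and interstitial kind contain a pair of alpha1 chains and 1 alpha2 chain, encoded by Col4a1 and Col4a2. Col4a1 was at 389, 296 and 285 CPM in knockout and at 299, 278 and 331 CPM in wild type. The groups overlapped, with a log2 fold change of 0.09 (SE 0.22, 95% interval -0.38 to 0.57, edgeR adjusted p = 0.859). Col4a2 was at 28.4, 45.3 and 25.6 CPM in knockout and at 85.9, 97.1 and 29.1 CPM in wild type. WT-596 and WT-597 were above every knockout library, and WT-795 was among them. The log2 fold change was -1.10 (SE 0.36, 95% interval -1.88 to -0.32, edgeR adjusted p = 0.459), with means of 33.1 ± 10.7 (SD, n = 3) and 70.7 ± 36.4 CPM (SD, n = 3). Without WT-795 it was -1.49, with an edgeR adjusted p of 0.00685. It was also called with no filter on low counts (edgeR adjusted p = 0.00297), a fit in which 0.845% of all genes were called.

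The 2 genes that share the 22-base overlap shown above therefore had unlike values. Per length, the ratio of Col4a1 to Col4a2 was 12.1, 5.80 and 9.87 in knockout and 3.09, 2.54 and 10.1 in wild type. It was high in all knockout libraries and in WT-795 and low in WT-596 and WT-597, so the groups overlapped. This ratio was chosen after the values were seen and is given with no test. Transcript GC content was 57.7% for Col4a1 and 60.6% for Col4a2.

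The remaining type IV chains were rare. Col4a3, Col4a4 and Col4a5 form the networks of kidney glomerulus, lung and cochlea, and Col4a5 with Col4a6 those of smooth muscle and some epithelia. Col4a5 was at 1.85, 3.00 and 2.47 CPM in knockout and at 3.89, 3.49 and 4.43 CPM in wild type. All knockout libraries were below all wild-type libraries, at a log2 fold change of -0.69 (SE 0.36, edgeR adjusted p = 0.480). The gene lies on the X chromosome, and the libraries with Xist were mut-596 and mut-597, the lowest and the highest of the knockout group. Col4a3 had 47 counts in all and none in mut-795, where a count of 0 leaves room for up to 3 counts, and Col4a4 had 70. Col4a3 shares 563 exon bases with C430014B12Rik on the opposite strand, which had 109 counts, and reads of the pair cannot be told apart without strand. Col4a6 had 9 counts in all libraries together.

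Col4a1 made up 91.6%, 83.8% and 89.7% of per-length type IV collagen transcript in knockout and 74.4%, 70.8% and 89.2% in wild type. Its mean share was 88.4% ± 4.07 (SD, n = 3) in knockout and 78.1% ± 9.72 (SD, n = 3) in wild type, and the groups overlapped through WT-795. Col4a2 supplied nearly all the rest, at 7.54%, 14.4% and 9.09% in knockout and 24.1%, 27.9% and 8.83% in wild type.

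**Figure D2:**
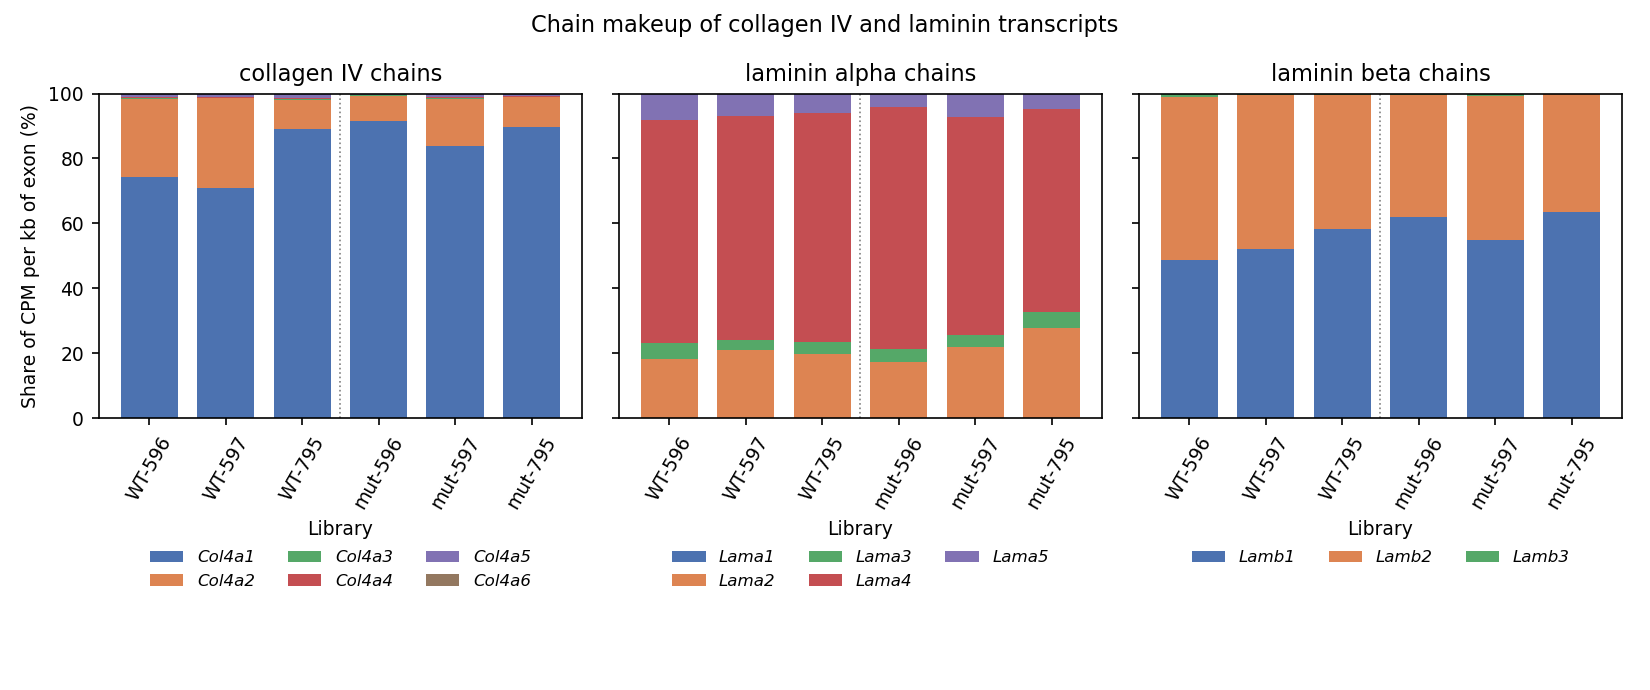
Share (%) of each chain in the summed CPM per kb of exon of type IV collagen and of laminin alpha and beta chains, one stacked bar per library. The Col4a2 segment is wide in WT-596 and WT-597 (24.1% and 27.9%) and narrow in WT-795 (8.83%) as in the knockout libraries. Lama4 is the major alpha chain in every library.

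Collagens XV and XVIII are proteoglycans of the basement membrane zone, the latter the source of endostatin. Col18a1 was at 23.9, 28.05 and 15.9 CPM in knockout and at 36.7, 40.5 and 25.4 CPM in wild type. WT-795 alone entered the knockout range, and the log2 fold change was -0.60 (SE 0.26, edgeR adjusted p = 0.461). Col15a1 was at 33.4, 35.8 and 23.8 CPM in knockout and at 32.9, 44.0 and 34.2 CPM in wild type. Its groups overlapped, at -0.26 on the log2 scale (SE 0.23, edgeR adjusted p = 0.624).

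Laminin alpha chains set which receptors a laminin binds. Lama4, the alpha chain of endothelial and adipose basement membranes, was at 81.5, 59.99 and 45.1 CPM in knockout and at 47.6, 54.3 and 61.5 CPM in wild type. Knockout libraries were both the highest and the lowest, and the log2 fold change was 0.19 (SE 0.24, edgeR adjusted p = 0.731). Lama2, the alpha chain of muscle fibres and Schwann cells, was at 25.9, 26.7 and 27.2 CPM in knockout and at 17.2, 22.4 and 23.3 CPM in wild type. Every knockout library was above every wild-type library, at a log2 fold change of 0.35 (SE 0.22, 95% interval -0.12 to 0.81, edgeR adjusted p = 0.514). Part of Lama2, 631 exon bases, overlaps the antisense gene Gm48084, which had 297 counts against 1224 for Lama2.

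The remaining alpha chains were low. Lama3 was between 2.08 and 3.70 CPM and Lama5 between 3.19 and 6.00 CPM over the 6 libraries, with log2 fold changes of 0.29 (SE 0.37) and -0.21 (SE 0.32). Lama1, the alpha chain of early embryonic basement membranes, had 0 counts in each knockout library and 1, 2 and 1 counts in wild type. A count of 0 leaves room for 3 counts, so a difference was not detectable at this depth. By per-length share, Lama4 made up 68.1% ± 5.99 (SD, n = 3) of alpha chain transcript in knockout and 69.3% ± 1.05 (SD, n = 3) in wild type, and Lama2 22.5% ± 5.21 and 19.6% ± 1.32 (SD, n = 3 each).

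Among beta chains, Lamb1, the widespread form, was at 50.4, 41.1 and 39.4 CPM in knockout and at 40.6, 52.7 and 42.8 CPM in wild type. The groups were interleaved, at a log2 fold change of -0.06 (SE 0.22, edgeR adjusted p = 0.916). Lamb2, the beta chain of the neuromuscular junction and of mature vessels, was at 18.8, 20.4 and 13.9 CPM in knockout and at 25.4, 29.4 and 18.6 CPM in wild type. It lay lower in knockout apart from WT-795, at -0.48 (SE 0.25, edgeR adjusted p = 0.480). Lamb3, an epidermal chain, had 18 counts in all. Per length, Lamb1 supplied 60.1% ± 4.66 (SD, n = 3) of beta chain transcript in knockout and 53.1% ± 4.75 (SD, n = 3) in wild type. These shares depend on which length is used, and with the longest transcript they were 70.4% and 64.1%.

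Lamc1 is the gamma chain of most laminins. It was at 43.3, 40.2 and 34.6 CPM in knockout and at 42.1, 53.0 and 45.2 CPM in wild type, with overlapping groups and a log2 fold change of -0.25 (SE 0.21, edgeR adjusted p = 0.606). Lamc3 had 49 counts in all, so Lamc1 made up 97.5% ± 1.80 (SD, n = 3) of gamma chain transcript in knockout and 96.8% ± 1.32 (SD, n = 3) in wild type.

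Nidogens bind the laminin gamma1 chain and type IV collagen. Nid1 was at 252, 195 and 201 CPM in knockout and at 153, 150 and 179 CPM in wild type. Every knockout library was above every wild-type library, at a log2 fold change of 0.43 (SE 0.21, 95% interval -0.03 to 0.89, unadjusted p = 0.0649 and edgeR adjusted p = 0.477). Leaving out each library in turn gave values between 0.28 and 0.49. Nid2 was between 41.2 and 49.8 CPM over the 6 libraries, at 0.04 (SE 0.20, edgeR adjusted p = 0.935). It shares 437 exon bases, 8.45% of its exons, with Rtraf on the opposite strand, which had more counts, 5221 against 2369.

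Heparan sulfate proteoglycans tether growth factors to the sheet. Hspg2, which encodes perlecan, was at 93.5, 127 and 76.7 CPM in knockout and at 146, 173 and 126 CPM in wild type. Values were lower in knockout except that mut-597 (127 CPM) was just above WT-795 (126 CPM), and the log2 fold change was -0.58 (SE 0.24, 95% interval -1.09 to -0.07, edgeR adjusted p = 0.459). Agrn, which encodes agrin, the organiser of the neuromuscular junction, was between 9.90 and 17.1 CPM, at -0.27 (SE 0.26). The per-length ratio of Nid1 to Hspg2 was 5.56, 3.16 and 5.41 in knockout and 2.16, 1.79 and 2.93 in wild type. The groups did not overlap, WT-795 being the highest of wild type. This ratio, too, was chosen after the values were seen and carries no test. Transcript GC content was 50.4% for Nid1 and 60.9% for Hspg2. Of the other ratios formed, Nid1 to Nid2 and Lamc1 to Lamb1 also separated the groups. Those of Col4a1 to Col4a2, Lama4 to Lama2 and Lamb1 to Lamb2 overlapped. The share of such separation over all gene pairs was not taken.

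FRAS1, FREM1 and FREM2 form a complex that anchors epithelial basement membranes to the dermis, and nephronectin, a ligand of integrin alpha8 beta1, binds to it. Frem1 was at 4.36, 4.20 and 3.60 CPM in knockout and at 2.56, 2.26 and 2.36 CPM in wild type. Every knockout library was above every wild-type library, at a log2 fold change of 0.75 (SE 0.35, 95% interval 0.01 to 1.49, unadjusted p = 0.0475 and edgeR adjusted p = 0.471). The counts behind it were small, 33, 28 and 35 in knockout and 27, 24 and 17 in wild type. Frem2 was at most 4.43 CPM, at -0.49 (SE 0.47).

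Fras1 was at 17.96, 20.2 and 17.0 CPM in knockout and at 15.2, 9.44 and 28.4 CPM in wild type. The wild-type libraries spread to both sides of the knockout libraries, at a log2 fold change of 0.07 (SE 0.33, edgeR adjusted p = 0.934). Npnt, which encodes nephronectin, was at 62.1, 65.1 and 69.9 CPM in knockout and at 62.6, 64.6 and 66.7 CPM in wild type. Its log2 fold change was 0.02 (SE 0.20, 95% interval -0.40 to 0.45, edgeR adjusted p = 0.964), and -0.01 with upper-quartile scaling.

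Dystroglycan, encoded by Dag1, is the laminin receptor that links the sheet to dystrophin, and pikachurin, encoded by Egflam, is one of its extracellular ligands. Dag1 was at 102, 103 and 86.5 CPM in knockout and at 80.4, 92.2 and 99.8 CPM in wild type, with overlapping groups (log2 fold change 0.10, SE 0.21, edgeR adjusted p = 0.840). Egflam was at 0.66, 2.70 and 1.54 CPM in knockout and at 1.61, 3.49 and 2.36 CPM in wild type. The groups overlapped, at -0.62 (SE 0.51, edgeR adjusted p = 0.593).

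The smaller proteins were mixed. Tinagl1, a matricellular protein related to tubulointerstitial nephritis antigen, was at 11.9, 15.6 and 11.3 CPM in knockout and at 26.7, 28.8 and 11.9 CPM in wild type. As with Col4a2, WT-596 and WT-597 were high and WT-795 was within the knockout range. The log2 fold change was -0.81 (SE 0.31, 95% interval -1.46 to -0.15, edgeR adjusted p = 0.459), and without WT-795 it was -1.12 (edgeR adjusted p = 0.0148).

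Smoc2, a calcium-binding protein that modulates growth factor signalling, was at 56.9, 79.9 and 61.1 CPM in knockout and at 59.1, 51.2 and 74.6 CPM in wild type. Its groups overlapped, at 0.10 (SE 0.23, edgeR adjusted p = 0.856). Smoc1, its paralog, was between 1.13 and 3.57 CPM, at -0.07 (SE 0.49). Ntn4, a netrin that binds laminin gamma chains and disrupts the laminin network, was between 5.001 and 13.1 CPM, at 0.42 (SE 0.34, edgeR adjusted p = 0.584).

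**Figure D3:**
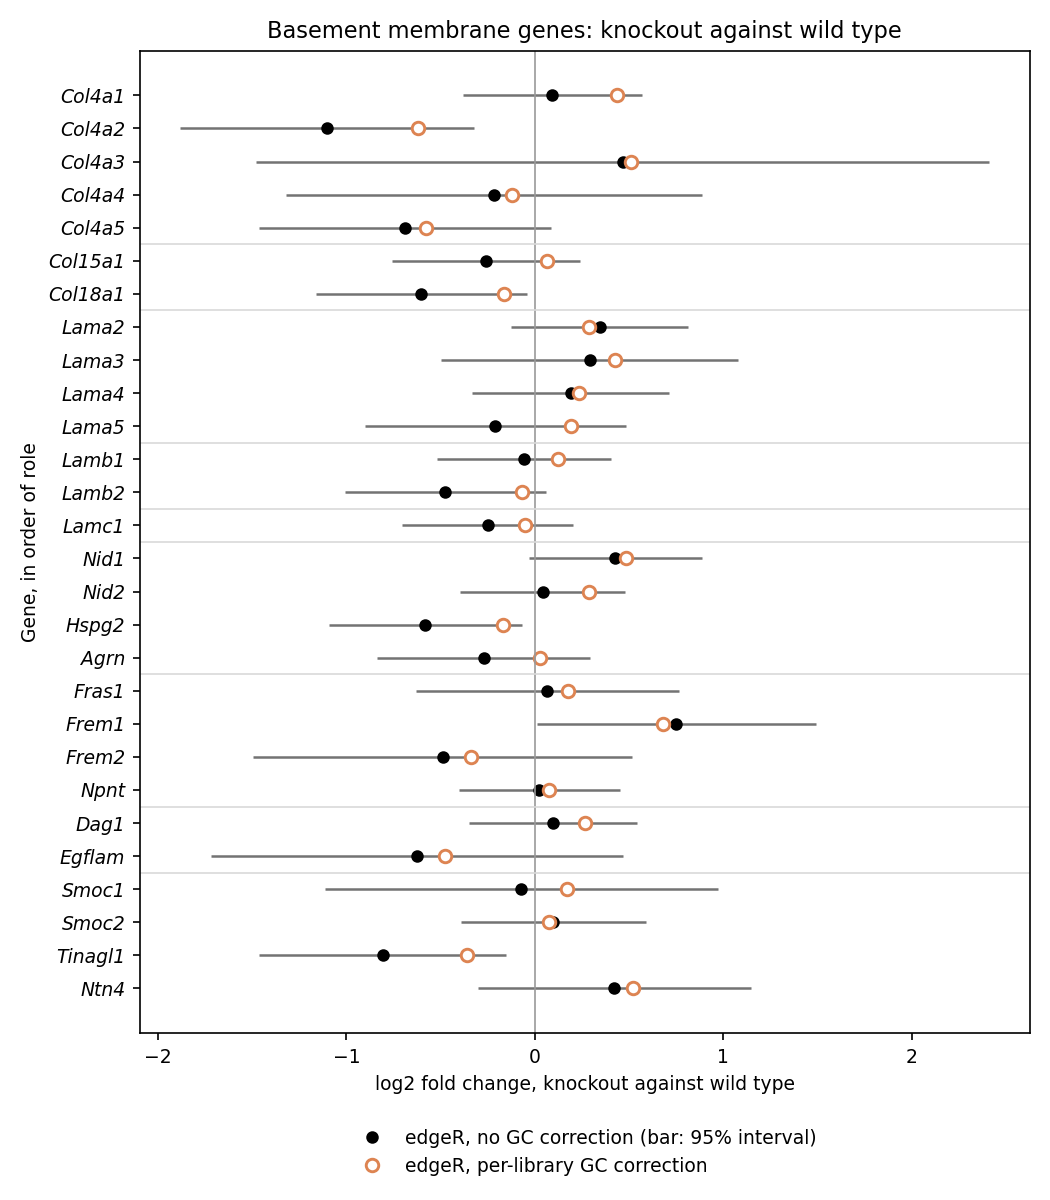
Log2 fold change (knockout over wild type) for the 28 genes past the filter, by role. Filled points and bars give the edgeR estimate with its 95% interval, and open points the estimate after a per-library correction for transcript GC content, in which Col4a2 moves from -1.10 to -0.62.

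The authors' deposited table of differential genes lists 5 of the 28 genes tested (17.9%), and 9.2% of all genes tested. Log2 fold changes in the authors' deposited table are -1.11 for Col4a2, -0.82 for Tinagl1, -0.61 for Col18a1, -0.59 for Hspg2 and 0.42 for Nid1. All 1609 rows of the authors' deposited table that could be matched equalled a DESeq2 fit to the deposited counts within 0.001, and the highest unadjusted p among them in that fit was 0.05. The DESeq2 adjusted p-values of the 5 genes in that fit were 0.198, 0.333, 0.395, 0.334 and 0.422, in the order above.

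Fold changes of these genes followed the GC content of their transcripts. Their median GC content was 52.3% (range 47.7% to 60.9%), against 49.1% for all genes tested. Across the 28 genes the Spearman correlation between GC content and log2 fold change was -0.69, and across 15701 genes it was -0.62. Genes of a library share its depth and its amplification, so these are descriptions. Of the 14 genes with the higher GC content, 11 were below 0 (median log2 fold change -0.25), and of the other 14, 4 were (median 0.14).

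A correction of each library for its GC trend brought the correlation over all genes to -0.03 and that over the 28 genes to -0.46. With it, 10 of the 28 genes were below 0, their median was 0.10, and edgeR called none, with 0.00636% of all genes called. Corrected log2 fold changes were -0.16 for Col18a1, -0.17 for Hspg2, -0.06 for Lamb2, -0.36 for Tinagl1 and -0.62 for Col4a2. Those of the 3 genes higher in every knockout library moved less, to 0.48 for Nid1, 0.29 for Lama2 and 0.68 for Frem1. Their transcripts have 50.4%, 47.7% and 47.7% GC, near the median of all genes. A GC correction moves such genes little by construction, so the smaller move lends them no weight. Col4a1 was at 0.44. Col4a5, whose transcript has 51.5% GC, was at -0.58. The part of GC content in the uncorrected values was not tested beyond this.

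**Figure D4:**
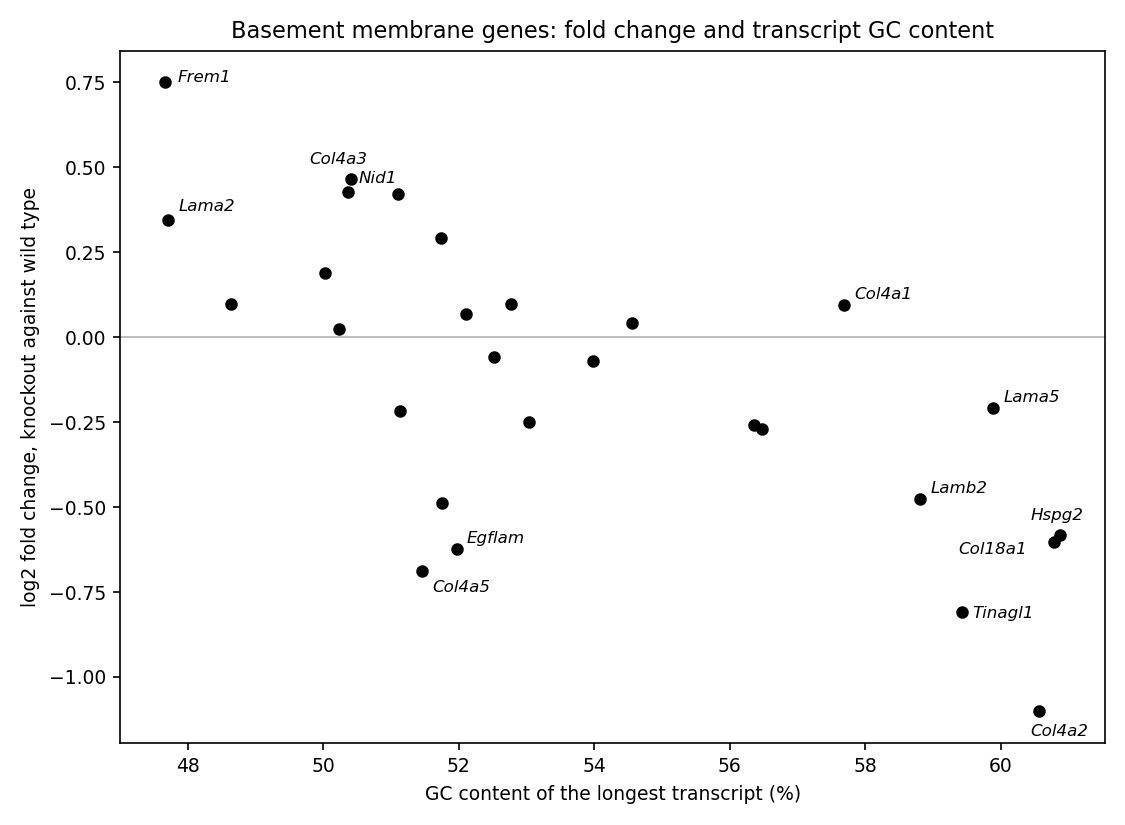
Log2 fold change (knockout over wild type) against the GC content (%) of the longest transcript, one point per gene past the filter. Col4a2, Hspg2, Col18a1 and Tinagl1 lie at the lower right, and Frem1 and Lama2, with the lowest GC content, lie above 0.

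Genes that work with these proteins gave no call either (0 in each of 4 lists by edgeR, DESeq2 and limma-voom, background 0.00636% by edgeR). Of 15 other basement membrane components, 10 were tested, 3 above and 7 below 0 (background 49.1% of all genes below 0). Their median was -0.47 on the log2 scale. Of the 10, 2 had an unadjusted p under 0.05, both lower, against 7.12% of all genes lower and 10.5% in either direction. Their transcripts had a median GC content of 55.9%, against 49.1% for all genes tested. With the GC correction their median log2 fold change was -0.09. The part of GC content in it was not tested further. Sparc, a collagen-binding matricellular protein that is also abundant in bone and fibrous tissue, was at 3177, 4555 and 3836 CPM in knockout and at 7928, 7406 and 3947 CPM in wild type. It showed the layout of Col4a2, with WT-795 inside the knockout range, at -0.74 (SE 0.32, edgeR adjusted p = 0.461). Vwa1, a partner of perlecan, was at 14.1, 14.4 and 14.1 CPM in knockout and at 22.9, 19.6 and 17.6 CPM in wild type. Its groups did not overlap, at -0.50 (SE 0.22, edgeR adjusted p = 0.466).

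Of 17 receptors, 16 were tested, 8 above and 8 below 0, with a median of 0.00. At an unadjusted p under 0.05 there were 3 (18.75%, against 10.5% of all genes), 1 higher and 2 lower. Itgb4, the integrin subunit of hemidesmosomes, was at 2.77, 2.55 and 2.16 CPM in knockout and at 5.98, 5.38 and 2.63 CPM in wild type (log2 fold change -0.92, SE 0.38, edgeR adjusted p = 0.459). Bcam, a receptor for the laminin alpha5 chain, was at 5.94, 6.00 and 8.02 CPM in knockout and at 11.9, 18.8 and 5.96 CPM in wild type (-0.88, SE 0.36, edgeR adjusted p = 0.459). For both, WT-795 was inside the knockout range.

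Enzymes that put the laminin-binding sugar chain on dystroglycan were mixed. Of 11, 10 were tested, 4 above and 6 below 0, with a median of -0.06. None had an unadjusted p under 0.05, against 10.5% of all genes. Pomk, a kinase of the sugar chain, was at 5.81, 4.65 and 7.72 CPM in knockout and at 9.50, 8.68 and 6.93 CPM in wild type. Its groups overlapped, at -0.46 (SE 0.29, edgeR adjusted p = 0.514).

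All 14 genes for folding and assembly of collagen IV were tested, 5 above and 9 below 0, with a median of -0.23. Those with an unadjusted p under 0.05 were 2 (14.3%, against 10.5% of all genes), both lower. Plod3, a lysyl hydroxylase and glycosyltransferase needed for type IV collagen, was at 13.3, 14.2 and 12.5 CPM in knockout and at 20.1, 23.4 and 18.6 CPM in wild type. Its groups did not overlap, at -0.63 (SE 0.23, edgeR adjusted p = 0.459). Serpinh1, the collagen chaperone HSP47, was at 413, 537 and 525 CPM in knockout and at 917, 842 and 523 CPM in wild type, at -0.63 (SE 0.26, edgeR adjusted p = 0.459), with WT-795 again inside the knockout range. Without WT-795, Sparc, Bcam, Itgb4 and Serpinh1 passed the threshold (edgeR adjusted p = 0.0220, 0.0214, 0.0458 and 0.0269), at -1.01, -1.21, -1.21 and -0.86. In that fit 9.08% of all genes were called.

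Cells that build basement membranes, and those of the labelled site, were followed by 68 markers. None of the 57 tested was called by edgeR, DESeq2 or limma-voom. At an unadjusted edgeR p under 0.05, 4 were higher and 9 lower, against a background of 3.37% and 7.12% of all genes. The 4 were all Schwann cell markers, and 4 of the 9 were skeletal muscle markers. The 10 endothelial markers summed to between 198 and 230 CPM in knockout and between 214 and 224 CPM in wild type, 6 of them below 0, and their median on the log2 scale was -0.05. The 9 mural markers summed to between 447 and 606 CPM and between 528 and 610 CPM. All 11 skeletal muscle markers were below 0 (median -0.68). Their sum was 2254, 4519 and 4211 CPM in knockout and 4127, 10165 and 3061 CPM in wild type. WT-597 alone was above the knockout range, and WT-596 and WT-795 were inside it. Schwann cell markers summed to 68.9, 62.1 and 23.7 CPM in knockout and 19.4, 27.0 and 9.56 CPM in wild type, with 4 of 5 tested above 0 (median 1.63). Only mut-596 and mut-597, the libraries with Xist, were above the wild-type range, and mut-795 was inside it.

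Sums of adipocyte markers were between 176 and 316 CPM in knockout and between 122 and 250 CPM in wild type, with Lep at 0. The 7 epithelial markers, of which 2 passed the filter, summed to between 8.85 and 9.77 CPM in knockout and between 9.28 and 14.7 CPM in wild type, and Krt14 and Krt15 had no count. Chondrocyte markers summed to between 2891 and 2954 CPM in knockout and between 2031 and 3259 CPM in wild type, with the highest sum in WT-795. The part of these cell types in the values of Lama2, Nid1, Frem1, Col4a5 and the genes with lower values was not tested.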

How the data were processed

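RNA sequencing covered limb bone perichondrium of 3 Fbn1Scx-/- and 3 wild-type libraries, made per the labels with a micro-scale column kit, SMART-Seq v4 and Nextera XT, which amplify by PCR and do not mark strand. The authors' deposited matrix holds raw counts for 55536 genes, not normalized. Per the submitters' processing notes the build was GRCm38.p6 and the tool named is DESeq2. Per the file headers, alignments carry the naming of STAR's coordinate-sorted output, and the matrix is named for feature counts. Versions, strand setting and handling of multiply matching reads were not given in the sources used here. Log2 fold changes come with the authors' deposited table of differential genes.

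Symbols, exons and transcript GC content came from GENCODE M21. The test was edgeR 4.0.16 in R 4.3.3 (glmQLFit and glmQLFTest, TMM, filterByExpr, no covariate), two-sided, with Benjamini-Hochberg adjustment over 15712 genes and a threshold of 0.05. It was tested on simulated data that held no GC trend, so that check does not cover the GC trends of these libraries. Levels are TMM-scaled CPM, per kb of summed exons between genes, and intervals are 95%. Alternatives were upper-quartile and RLE scaling, a stricter filter (1 CPM) and none, DESeq2 1.42.0, limma-voom (limma 3.58.1), a replicate block, a GC correction (lowess span 0.3, with and without the block), a covariate for libraries with Xist, leaving out each library, and longest-transcript lengths.

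Values per library are given for Fbn1, for genes past the threshold or with groups that do not overlap, and for the 2 most abundant genes per length of each role. The 2 genes of smallest unadjusted p are named from each list of related genes, apart from a gene that is not reported here. The genes and lists were chosen with earlier results of these data known. Floors and intervals cover counting error or the spread between libraries only.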

Additional observations from a re-analysis of the deposited data

How the results depend on the processing

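Of 446 recomputed log2 fold changes of the 28 genes, 406 kept direction and side of the threshold over the 16 settings tried, 37 changed sign and 3 passed the threshold, and 14 genes changed sign at least once. The cause was not tested. The number of genes past the threshold was 1 (Col4a2) with no filter on low counts and 0 to 2 on leaving out each library, 2 without WT-795. In the same way it was 0 to 1 for other components, 0 to 2 for receptors and 0 to 1 for folding genes. The share of all genes called was 9.08% without WT-795 and 0.845% with no filter on low counts. The median over the 28 genes was 0.098 with the GC correction, 0.094 with the GC correction and replicate block, -0.355 with the Xist covariate, and -0.166 to -0.02 on leaving out each library. With the GC correction, then with the block added, the medians were -0.09 and -0.097 for other components, 0.208 and 0.212 for glycosylation enzymes, and -0.089 and -0.09 for folding genes. With the Xist covariate the medians were -0.226 for receptors and -0.347 for folding genes, and Fbn1 was at -3.649. That covariate marks only mut-596 and mut-597, so every knockout estimate with it rests on mut-795 alone against the wild-type libraries. On leaving out each library the medians ran from -0.613 to -0.258 for other components and from -0.167 to 0.139 for glycosylation enzymes. With longest-transcript lengths the wild-type shares were 18.2% for Lama2, 75.6% for Lama4 and 64.1% for Lamb1, and the knockout share of Lamb1 was 70.4%.

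Signs turned as follows. With the GC correction, then with the block added, Col15a1 was at 0.067 and 0.06, Lama5 at 0.19 and 0.184, Lamb1 at 0.121 and 0.114, Agrn at 0.029 and 0.022, and Smoc1 at 0.17 and 0.138. With the Xist covariate, mut-795 alone sets the knockout estimate. There Col4a1 was at -0.088, Col4a3 (no count in mut-795) at -5.837, Lama4 at -0.273, Fras1 at -0.047, Dag1 at -0.069 and Smoc2 at -0.011. Col4a3 was at -0.169 with limma-voom and Npnt at -0.011 with upper-quartile scaling. On leaving out each library, values ran from -0.079 to 0.17 for Col4a1, -0.261 to 1.106 for Col4a3, -0.513 to 0.128 for Col4a4, -0.071 to 0.371 for Lama4, -0.19 to 0.048 for Lamb1, -0.031 to 0.089 for Nid2, -0.252 to 0.551 for Fras1, -0.032 to 0.046 for Npnt, -0.628 to 0.258 for Smoc1 and -0.072 to 0.236 for Smoc2.

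Libraries with the same number did not deviate together (correlations -0.18, 0.24 and -0.20), so the numbers are not taken to pair them. The fit with the number as a replicate block called 0 of the 28 genes, with a median of -0.081, and changed no call in the lists. With 3 libraries a group the standard errors of the 28 genes ran from 0.20 to 0.91, which limits what could be detected.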
